A study of Mus musculus with 6 samples.

Results

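Type I interferon-stimulated genes were followed in ventral hippocampus, in libraries labelled NEGR1 overexpression and in control libraries. The group held 44 genes listed by symbol for their known roles in this response: antiviral effectors, sensors of viral nucleic acid, and the STAT and IRF factors that drive them. All 44 symbols matched a row among the 56941 gene identifiers of the count table, and all 44 had enough counts to be tested. The labels give 3 mice with the genotype NEGR1_overexpression and 3 with the genotype NEGR1_control, all sampled from ventral hippocampus, 1 poly(A) RNA library each. The study set these groups side by side to ask what NEGR1, a neuronal cell adhesion molecule, does to memory and to mood-related behaviour. The sources used here do not give strain, age, sex, the means of overexpression or what the control mice received.

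Type I interferons are secreted proteins that cells release after sensing foreign or misplaced nucleic acid. They bind a receptor made of IFNAR1 and IFNAR2, whose kinases JAK1 and TYK2 phosphorylate STAT proteins. These join IRF9 in a complex that binds the interferon-stimulated response element, a short sequence in the promoters of the induced genes. The induced proteins cut or edit viral RNA, block translation, trap virions and adjust the response itself. In brain, microglia, endothelium, astrocytes and neurons can all mount this response, and many of the genes keep a low level in healthy tissue.

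The promoters of 4 members are shown because they carry that element and belong to the genes with the smallest p-values that do. They come from RefSeq (GRCm38.p6) and stop before the transcription start site; capitals mark each copy of the element core, which is GAAA, then 2 bases of any kind, then GAAA, in either orientation.
Rsad2, chr12:26456538-26456597, minus strand: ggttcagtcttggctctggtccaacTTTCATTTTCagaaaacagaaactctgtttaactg
Oas3, chr5:120777700-120777759, minus strand: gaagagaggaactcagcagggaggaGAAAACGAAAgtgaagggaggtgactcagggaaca
Ifit1, chr19:34640760-34640838, plus strand: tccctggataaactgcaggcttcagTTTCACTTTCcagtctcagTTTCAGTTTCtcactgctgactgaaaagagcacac
Isg15, chr4:156200850-156200921, minus strand: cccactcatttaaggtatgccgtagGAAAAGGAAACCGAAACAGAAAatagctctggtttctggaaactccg

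Rsad2 and Oas3 had 1 copy each, Ifit1 had 2 separate copies in reverse orientation, and Isg15 had 3 copies that overlap end to end. RefSeq promoter windows, 250 bases before to 50 bases after a start site, were at hand for 34 of the 44 members. The core on either strand was in a window of 15 of these 34 members (44.1%), against 3.99% of the 27025 genes with a window. It was not particular to the members. Among genes with a window, it was in 9 of 10 GBP and IRG GTPases (90.0%) and 5 of 7 p200 genes (71.4%). In MHC class I presentation it was in 3 of 13 (23.1%). A longer form, the core followed directly by CT, was in 7 of the 34 (20.6%), against 0.303% of all genes: Oas1a, Ifit1, Ifit3, Ifit3b, Bst2, Ifitm3 and Trim30a. TTCNNNGAA, the gamma-activated site, was in 8 of the 34 (23.5%), against 9.55% of all genes, and overlapped the core in Bst2 and Ifitm3. The 15 members with the core had log2 fold changes, overexpression over control, of 0.14 to 1.71 with a median of 0.84. The 19 with a window and no match had -0.05 to 1.47 with a median of 0.48, so the ranges overlapped, and the 10 members without a window had a median of 0.69. These matches are letters in a window and not shown binding.

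The libraries held 30726110 to 38108394 counts each, and levels are given as CPM, a read count scaled to the size of its library. The 8 markers of hippocampal neurons were all present, with Zbtb20 at 484 and Prox1 at 109 CPM in overexpression libraries against 466 and 97.8 CPM in control libraries. Negr1 had 185, 199 and 195 CPM in overexpression libraries, against 181, 168 and 180 CPM in control libraries. Every overexpression library lay above every control library for Negr1, with a fold of 1.09 that did not pass (edgeR adjusted p = 0.488; two-sided exact permutation p = 0.1, the smallest that 3 against 3 allows). Overexpression replicate 1 stood apart in choroid plexus markers, which summed to 724 CPM there and to 23.4 to 67.9 CPM in the other 5 libraries. Of the 724 CPM, Ttr made 640. All 6 markers were above 1 (50.4% of all genes tested). Kl, Clic6 and Otx2 had groups apart on the higher side (7.07%), and Ttr, Folr1 and Aqp1 overlapped. Clic6 had 19.7, 2.60 and 3.86 CPM in overexpression libraries, against 0.311, 0.984 and 0.295 CPM in control libraries. The median log2 fold change of the 44 members was 0.61 without overexpression replicate 1, and the part of choroid plexus was not tested.

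The interferon-stimulated genes stood higher in overexpression than in control libraries almost throughout, by amounts that were small for abundant members and larger for scarce ones. The list was chosen with earlier results of these data known, so the counts below describe it and do not test it. Of the 44 members, 43 had a fold change above 1, against 50.4% of all 19354 genes tested. The median log2 fold change was 0.54 over the members and 0.0015 over all genes tested. Only Mx1 passed an adjusted p of 0.05 in edgeR's quasi-likelihood test over all genes, where 0.0258% of genes were called higher. At an unadjusted p under 0.05, 31 members were higher and 0 lower, against 4.64% of all genes higher and 4.6% lower. In 25 members every overexpression library lay above every control library, as in 7.07% of all genes, and in 0 members every one lay below, as in 8.07%.

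**Figure D1:**
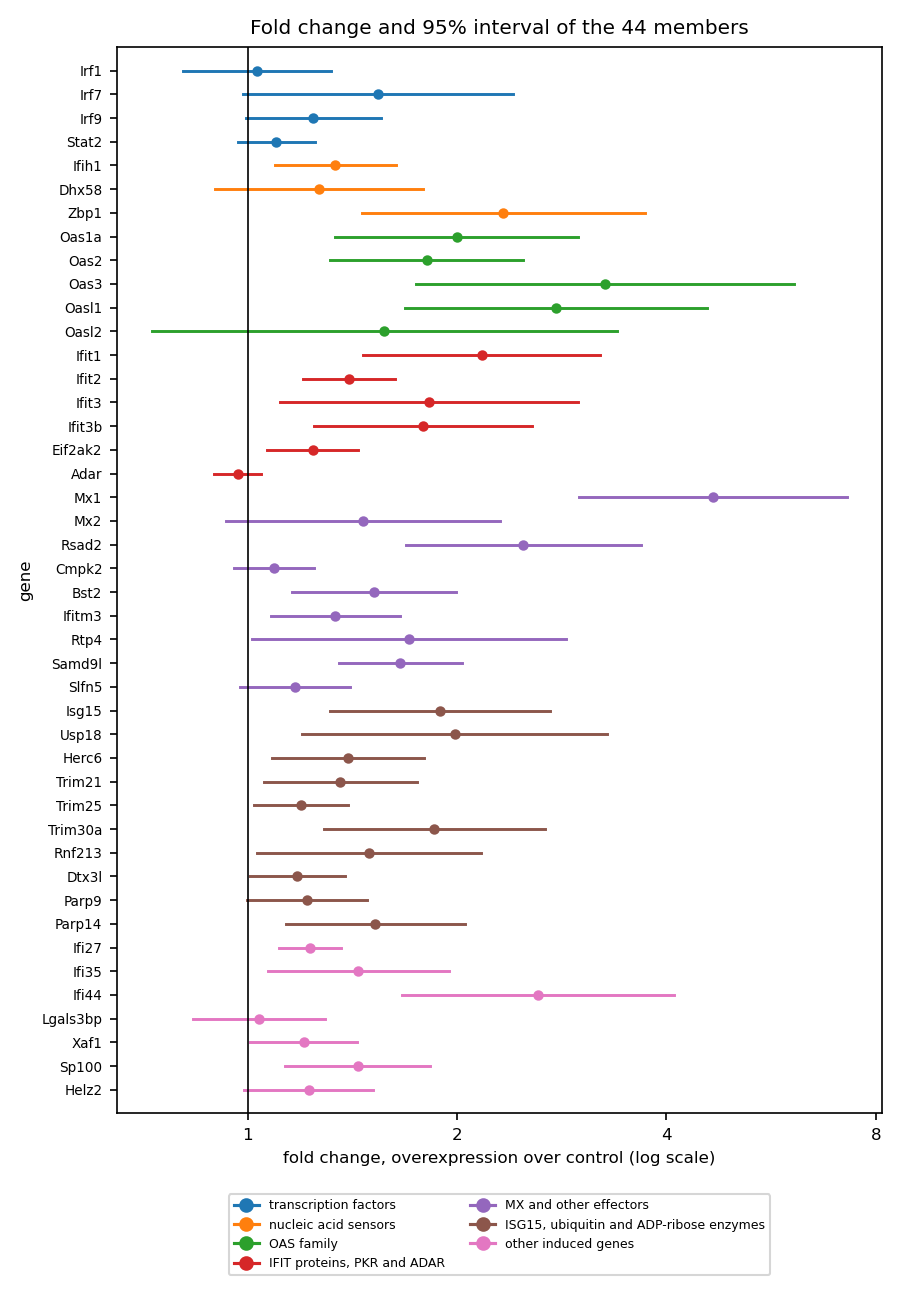
Fold change of each of the 44 members, overexpression over control, on a log axis; points are edgeR estimates, lines their 95% intervals, and colours the roles. Mx1 lies farthest to the right at 4.66-fold, and Adar is the only point left of 1.

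A fold of at least 2 was reached by 7 members: Mx1, Oas3, Oasl1, Ifi44, Rsad2, Zbp1 and Ifit1, as by 0.687% of all genes tested. Another 13 lay from 1.5 to below 2, and 24 below 1.5. A fold of at least 1.5 was thus seen in 20 members, against 3.05% of all genes tested. The 13 members below 3 CPM averaged over the 6 libraries included all members at 2-fold or more except Ifit1. The 11 members at 1 to below 3 CPM had a median log2 fold change of 0.99, and all genes tested at that level had 0.05. The share of all genes at 2-fold or more was not taken by level. The 15 members at 10 CPM or more had log2 fold changes of -0.05 to 0.87 with a median of 0.29, and all genes tested at that level had a median of -0.01.

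**Figure D2:**
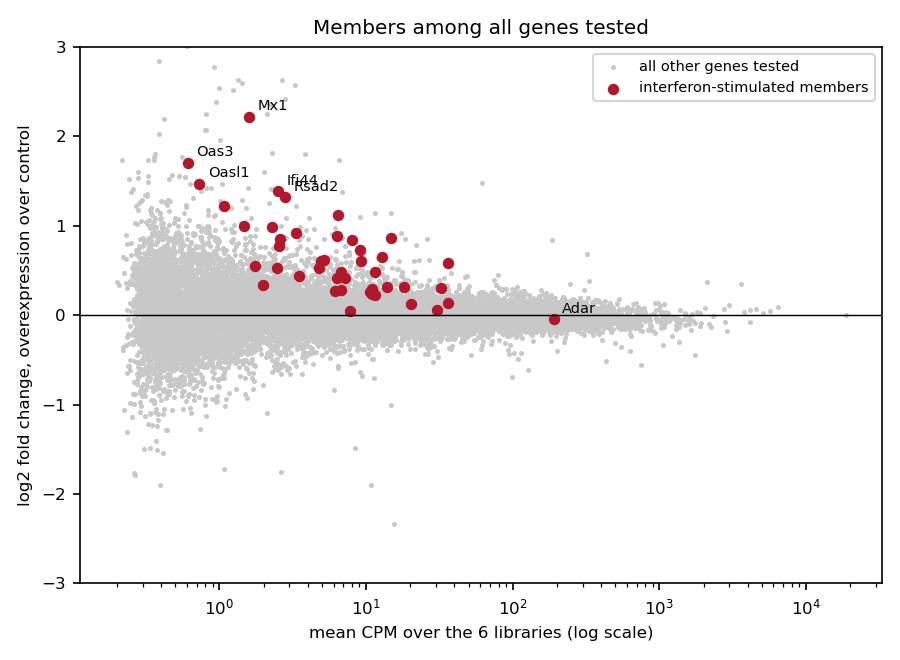
Log2 fold change, overexpression over control, of all 19354 genes tested against their mean CPM over the 6 libraries on a log axis; members are red and other genes grey, and 11 genes beyond ±3 on the vertical axis are not shown. The red points lie above 0, except Adar at -0.05, and higher at the low end of the CPM axis.

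Per kilobase of exon, the most abundant members were Ifi27 at 24.6, Adar at 23.04, Ifitm3 at 12.1 and Lgals3bp at 10.98 CPM per kilobase in overexpression libraries, against 19.9, 23.8, 9.09 and 10.6 in control libraries. The scarcest members of the control libraries were Oas3 at 0.132, Oasl1 at 0.414 and Mx1 at 0.692 CPM per kilobase in overexpression libraries, against 0.0413, 0.147 and 0.147 in control libraries. All 44 members thus had reads in control as well as overexpression libraries.

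Mx1 (ENSMUSG00000000386), an antiviral GTPase, rose the most. It had 1.73, 3.63 and 2.497 CPM in overexpression replicates 1, 2 and 3, against 0.623, 0.559 and 0.492 CPM in control replicates 1, 2 and 3. The groups were far apart, with the control libraries close together and overexpression replicate 2 the highest. The fold was 4.66 (95% interval 2.99 to 7.27), a log2 fold change of 2.22 ± 0.30 (SE, n = 3 per group), with an edgeR adjusted p of 0.0159. This call rested on single libraries: the adjusted p was 0.0583 when overexpression replicate 2 was left out, 0.179 when control replicate 2 was, and 0.0847 when control replicate 3 was. The log2 fold change over the 6 fits that each left out 1 library was 1.92 to 2.44. Mx2, its close relative, had 1.22, 2.57 and 2.41 CPM in overexpression libraries, against 1.21, 1.12 and 1.93 CPM in control libraries. Overexpression replicate 1 stood level with the lower controls and the groups overlapped (1.47-fold, adjusted p = 0.609). Of the 50-base words in Mx1 transcripts, 3.91% occur in another gene's transcripts, Mx2 before others.

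The other effectors act on virus particles, membranes and nucleotides. Of the 9 effectors, Mx1 and Mx2 included, 9 had a fold above 1 (50.4% of all genes tested), 6 were higher at an unadjusted p under 0.05 (4.64%) and 5 had groups apart on the higher side (7.07%). Rsad2 encodes viperin, which makes a chain-terminating nucleotide; it had 2.71, 5.53 and 3.77 CPM in overexpression replicates 1, 2 and 3, against 1.25, 1.70 and 1.87 CPM in control replicates 1, 2 and 3. The groups were apart and overexpression replicate 2 was again the highest (2.49-fold, 95% interval 1.69 to 3.68, adjusted p = 0.139). Samd9l, an inhibitor of translation, had 10.1, 10.2 and 13.9 CPM in overexpression libraries, against 7.51, 6.78 and 6.30 CPM in control libraries. Here overexpression replicate 3 was the highest and the groups were apart (1.66-fold, 95% interval 1.35 to 2.03, adjusted p = 0.111). Bst2, or tetherin, which holds budding virions at the cell surface, had 4.27, 6.34 and 7.13 CPM in overexpression libraries, against 3.55, 3.88 and 4.26 CPM in control libraries. Overexpression replicate 1 lay barely above the highest control (1.52-fold, adjusted p = 0.364). Ifitm3, which blocks fusion of virions with endosomes, was apart too, at 7.93 to 8.54 CPM in overexpression libraries against 5.05 to 7.61 CPM in control libraries (1.34-fold, adjusted p = 0.419). Rtp4 (1.70-fold), Slfn5 (1.17-fold) and Cmpk2 (1.09-fold), a mitochondrial nucleotide kinase, had groups that overlapped.

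**Figure D3:**
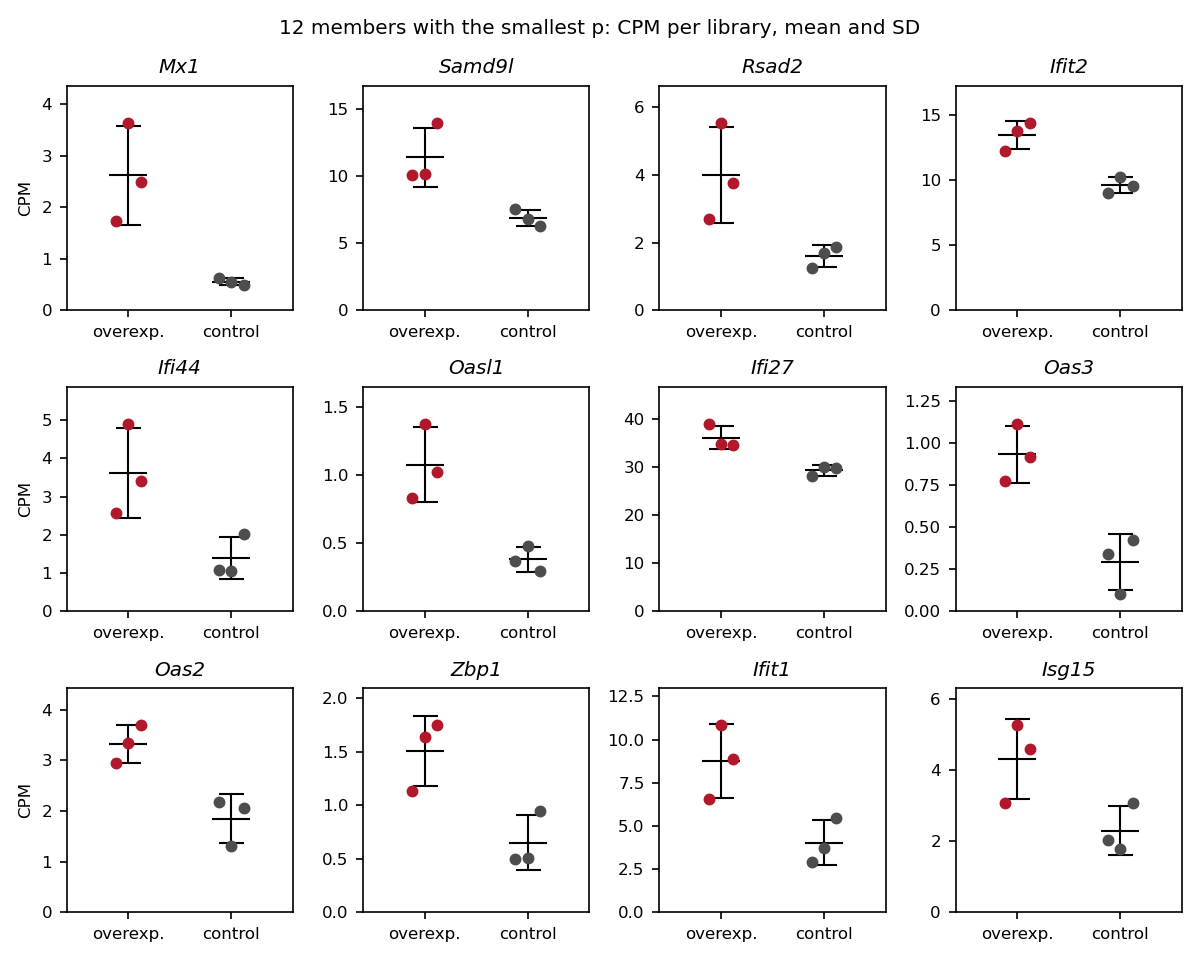
CPM in each library for the 12 members with the smallest p-values, overexpression left and control right in each panel; dots are libraries and bars are mean ± SD (n = 3 per group). Groups are apart in every panel except Isg15, where overexpression replicate 1 at 3.07 CPM lies just under control replicate 3 at 3.08 CPM.

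Members of the OAS family were higher in the overexpression libraries by 1.57-fold to 3.26-fold. Groups were apart on the higher side in 4 of 5 (7.07% of all genes tested), and 0 passed the adjusted threshold (0.0258%). Oas1a, Oas2 and Oas3 make short oligoadenylates that switch on the nuclease RNase L. Oas3 had 0.776, 1.11 and 0.915 CPM in overexpression replicates 1, 2 and 3, against 0.343, 0.106 and 0.426 CPM in control replicates 1, 2 and 3 (3.26-fold, 95% interval 1.75 to 6.10, adjusted p = 0.232). In raw reads this was 26, 38 and 33 counts in overexpression libraries against 11, 4 and 13 in control libraries, so the estimate is coarse. Oas2 had 2.95, 3.33 and 3.69 CPM in overexpression libraries, against 2.18, 1.303 and 2.07 CPM in control libraries (1.81-fold, adjusted p = 0.241). Oas1a had 1.49, 2.02 and 2.39 CPM in overexpression libraries, against 0.747, 0.904 and 1.31 CPM in control libraries (1.998-fold, adjusted p = 0.295). All 3 had groups apart. The value of Oas1a is uncertain, because 57.6% of its 50-base words also occur in other genes, Oas1g before others, and the treatment of shared reads is not stated.

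Of the OAS-like genes, Oasl1, which in mouse restrains translation of IRF7, had 0.835, 1.37 and 1.03 CPM in overexpression libraries, against 0.374, 0.479 and 0.295 CPM in control libraries (2.77-fold, 95% interval 1.68 to 4.57, adjusted p = 0.201). Oasl2 had 13.1, 17.05 and 16.7 CPM in overexpression replicates 1, 2 and 3, against 7.23, 6.46 and 16.3 CPM in control replicates 1, 2 and 3. Control replicate 3 stood at the level of the overexpression libraries, and the groups overlapped (1.57-fold, 95% interval 0.728 to 3.40, adjusted p = 0.705). Without control replicate 3, Oasl2 was at a log2 fold change of 1.19 and passed (adjusted p = 0.0123).

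The IFIT genes, Eif2ak2 and Adar encode proteins that bind RNA. Of these, the IFIT genes and Eif2ak2 stood higher and Adar did not. Ifit1, whose protein binds viral RNA caps, had 6.53, 10.8 and 8.88 CPM in overexpression replicates 1, 2 and 3, against 2.93, 3.72 and 5.48 CPM in control replicates 1, 2 and 3 (2.17-fold, 95% interval 1.47 to 3.21, adjusted p = 0.254). Ifit2 had 12.3, 13.8 and 14.3 CPM in overexpression libraries, against 9.03, 10.3 and 9.54 CPM in control libraries (1.399-fold, 95% interval 1.203 to 1.63, adjusted p = 0.149). Both had groups apart, and Ifit2 varied little within each. Ifit3 had 13.2, 24.6 and 19.5 CPM in overexpression libraries, against 8.66, 9.52 and 13.3 CPM in control libraries, with overexpression replicate 1 just under control replicate 3 (1.82-fold, adjusted p = 0.476). Ifit3b had 7.79, 10.8 and 12.3 CPM in overexpression libraries, against 4.05, 6.01 and 7.21 CPM in control libraries, with groups apart (1.79-fold, adjusted p = 0.372). Ifit3 and Ifit3b are near copies, with 51.2% and 45.0% of their 50-base words found in another gene, so reads may have been split or lost between them.

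Eif2ak2 encodes PKR, a kinase that halts translation on binding duplex RNA. It had 13.9, 15.0 and 17.3 CPM in overexpression libraries, against 11.6, 12.4 and 13.2 CPM in control libraries, with groups apart (1.24-fold, 95% interval 1.07 to 1.44, adjusted p = 0.401). Adar, which edits adenosine to inosine in duplex RNA and is made from a constitutive promoter as well as an induced one, had 195, 186 and 179 CPM in overexpression libraries, against 193, 188 and 199 CPM in control libraries. The groups overlapped, and the 95% interval of the fold was 0.894 to 1.05 (adjusted p = 0.827). Gene-level counts do not separate the transcripts of these promoters.

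The 3 sensors had folds above 1, and Zbp1 and Dhx58 had small counts (16 to 63 and 48 to 88 in a library). Zbp1, which detects nucleic acid in the Z conformation and can start necroptosis, had 1.13, 1.64 and 1.75 CPM in overexpression replicates 1, 2 and 3, against 0.498, 0.505 and 0.951 CPM in control replicates 1, 2 and 3 (2.33-fold, 95% interval 1.46 to 3.72, adjusted p = 0.254). Ifih1, or MDA5, the sensor of long duplex RNA, had 6.47, 6.87 and 8.54 CPM in overexpression libraries, against 5.17, 5.69 and 5.51 CPM in control libraries (1.34-fold, 95% interval 1.09 to 1.64, adjusted p = 0.401). Both had groups apart. Dhx58, or LGP2, a helicase that modulates MDA5, overlapped, at 1.998 to 2.57 CPM in overexpression libraries against 1.28 to 2.15 CPM in control libraries (1.27-fold, adjusted p = 0.689).

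The transcription factors showed the smallest differences of the roles, with a median of 0.23 in log2 fold change. Groups were apart in 0 of 4 (7.07% of all genes tested on the higher side, 8.07% on the lower). Irf7, the factor that amplifies interferon-alpha genes, had 6.32, 7.05 and 5.38 CPM in overexpression replicates 1, 2 and 3, against 3.08, 2.93 and 6.26 CPM in control replicates 1, 2 and 3. Control replicate 3 lay among the overexpression libraries (1.54-fold, 95% interval 0.984 to 2.40, adjusted p = 0.561). Irf9 had 17.4, 19.1 and 24.0 CPM in overexpression libraries, against 15.9, 13.8 and 19.2 CPM in control libraries (1.24-fold, adjusted p = 0.549). Stat2 had 36.1, 38.9 and 38.1 CPM in overexpression libraries, against 33.6, 30.1 and 39.2 CPM in control libraries (1.10-fold, adjusted p = 0.664). For both, control replicate 3 was again the highest control. Irf1, which is driven mainly by interferon-gamma through a gamma-activated site, had 5.91, 8.30 and 9.63 CPM in overexpression libraries, against 7.10, 8.67 and 7.31 CPM in control libraries. Its groups overlapped fully (1.03-fold, 95% interval 0.808 to 1.32, adjusted p = 0.961), and the sign turned without overexpression replicate 3 (log2 fold change -0.11) or control replicate 1 (-0.0064).

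ISG15 is a ubiquitin-like protein that is joined to other proteins. Of the 10 genes of ISG15 itself, ubiquitin ligases and ADP-ribose enzymes, 10 had a fold above 1, 9 were higher at an unadjusted p under 0.05 (4.64% of all genes tested) and 5 had groups apart on the higher side (7.07%). Isg15 had 3.07, 5.26 and 4.60 CPM in overexpression replicates 1, 2 and 3, against 2.02, 1.78 and 3.08 CPM in control replicates 1, 2 and 3 (1.89-fold, 95% interval 1.31 to 2.72, adjusted p = 0.288). Usp18, which removes ISG15 and damps the interferon receptor, had 2.12, 4.24 and 2.77 CPM in overexpression libraries, against 0.997, 1.33 and 2.30 CPM in control libraries (1.99-fold, 95% interval 1.199 to 3.29, adjusted p = 0.423). In both, overexpression replicate 1 lay just under control replicate 3, the only overlap. Herc6, the ISG15 ligase of mouse, was apart, at 6.41 to 10.04 CPM in overexpression libraries against 5.16 to 6.33 CPM in control libraries (1.39-fold, adjusted p = 0.423). Trim30a, a regulator of inflammatory signalling, had 7.25, 6.70 and 10.6 CPM in overexpression libraries, against 3.80, 3.56 and 5.97 CPM in control libraries, with groups apart (1.85-fold, 95% interval 1.29 to 2.67, adjusted p = 0.340). Parp14, an ADP-ribosyltransferase, had 8.20, 11.1 and 13.8 CPM in overexpression libraries, against 6.66, 6.44 and 8.72 CPM in control libraries, with 1 crossing (1.53-fold, adjusted p = 0.412). The large ligase Rnf213 had 33.4, 48.2 and 48.2 CPM in overexpression libraries, against 23.02, 29.4 and 34.6 CPM in control libraries, and overlapped by 1 crossing as well (1.49-fold, adjusted p = 0.507). Trim21, Trim25 and Dtx3l were apart at 1.36-fold, 1.19-fold and 1.18-fold, and Parp9, the partner of Dtx3l, overlapped at 1.22-fold.

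The 7 remaining members have less settled roles, and 5 of them had groups apart on the higher side (7.07% of all genes tested). Ifi44 had 2.57, 4.88 and 3.41 CPM in overexpression replicates 1, 2 and 3, against 1.09, 1.06 and 2.03 CPM in control replicates 1, 2 and 3 (2.61-fold, 95% interval 1.67 to 4.09, adjusted p = 0.191). Ifi27 had 38.8, 34.7 and 34.6 CPM in overexpression libraries, against 28.0, 29.9 and 29.8 CPM in control libraries (1.23-fold, 95% interval 1.11 to 1.36, adjusted p = 0.209). Ifi27 thus had one of the smaller folds and one of the narrowest intervals, and it was highest in overexpression replicate 1. Sp100, a nuclear body protein, had 4.95, 5.91 and 5.94 CPM in overexpression libraries, against 4.17, 3.14 and 4.39 CPM in control libraries (1.44-fold, adjusted p = 0.372). Ifi35 and Xaf1 were apart at 1.44-fold and 1.205-fold, and Helz2, a nuclear coactivator, overlapped at 1.22-fold. Lgals3bp, a secreted glycoprotein, had 35.6, 29.3 and 28.8 CPM in overexpression libraries, against 26.7, 27.0 and 36.6 CPM in control libraries. Control replicate 3 was the highest of all 6 libraries and the fold was 1.04 (95% interval 0.836 to 1.29, adjusted p = 0.937).

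**Figure D4:**
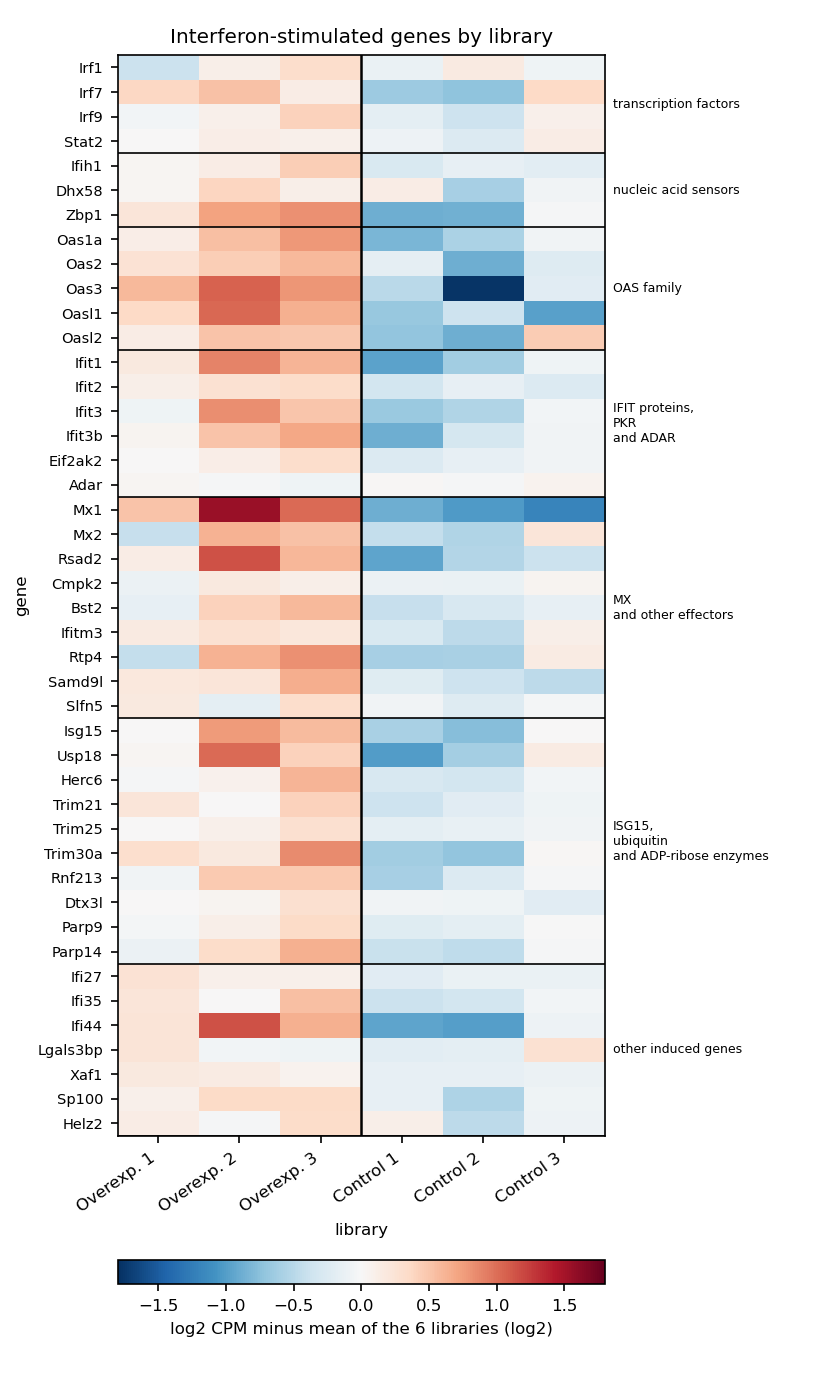
Log2 CPM of the 44 members in each library minus the mean of the 6 libraries, overexpression left of the line and control right, genes grouped by role. Red fills overexpression replicates 2 and 3, overexpression replicate 1 and control replicate 3 are paler, and control replicates 1 and 2 are blue.

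The libraries of a group did not carry the same level. The median deviation of the 44 members from each gene's mean over the 6 libraries was 0.10, 0.31 and 0.45 on the log2 scale in overexpression replicates 1, 2 and 3, against -0.35, -0.38 and -0.06 in control replicates 1, 2 and 3. Overexpression replicate 1 was the lowest of its group in 34 members, and control replicate 3 the highest of its group in 33. Control replicate 3 lay above overexpression replicate 1 in 15 members, whereas control replicates 1 and 2 did so in 2 and 1. This one pair of libraries thus crossed in 15 of the 19 members whose groups overlapped. The median log2 fold change of the members was 0.65 without control replicate 3, 0.61 without overexpression replicate 1, and 0.43 to 0.53 without one of the other 4 libraries. Members past the threshold numbered 7 without overexpression replicate 1 (0.227% of all genes higher): Mx1, Ifit1, Rsad2, Bst2, Samd9l, Parp14 and Ifi44. Leaving out control replicate 3 gave 1, Oasl2 in place of Mx1 (0.00502%). Leaving out overexpression replicate 2 or control replicate 2 gave 0 members in edgeR's test (0.0151% and 0% of all genes higher), with 30 and 21 members higher at an unadjusted p under 0.05 (5.13% and 3.89% of all genes). Mx1 alone passed when overexpression replicate 3 (0.0101%) or control replicate 1 (0.0805%) was left out. DESeq2's Wald test on all 6 libraries called 8 members (0.289% of all genes higher): Ifit1, Ifit2, Ifit3b, Mx1, Rsad2, Samd9l, Trim30a and Ifi44. In edgeR, 21 members passed with no filter on low counts (0.584% of all genes higher), 6 with the replicate number as a block (0.109%), 1 with at least 1 CPM in 3 libraries (0.0189%) and 1 at an adjusted p of 0.1 (0.0465%). In limma-voom 0 members passed (0%), and 32 were higher at an unadjusted p under 0.05 (4.99%).

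The high values were split between overexpression replicates 2 and 3. Replicate 2 was the highest of the overexpression libraries in 17 members, among them Mx1, Mx2, Rsad2, Ifit1, Ifit3, Isg15, Usp18, Ifi44, Oas3 and Oasl1, and replicate 3 in 23. In GBP and IRG GTPases, which interferon-gamma induces strongly, replicate 3 was the highest of the overexpression libraries in 13 of 15 genes and replicate 2 in 1. In the tested genes of MHC class I presentation this was 13 and 0 of 14. Replicate 3 minus replicate 2 had a median of 0.03 on the log2 scale over the 44 members. By role the members ran from -0.06 in MX and other effectors to 0.24 in ISG15, ubiquitin and ADP-ribose enzymes. The median was 0.48 over the GBP and IRG genes, 0.39 over the p200 genes and 0.62 over the MHC class I genes. Each value compares a single pair of mice, and the difference between lists was not tested.

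**Figure D5:**
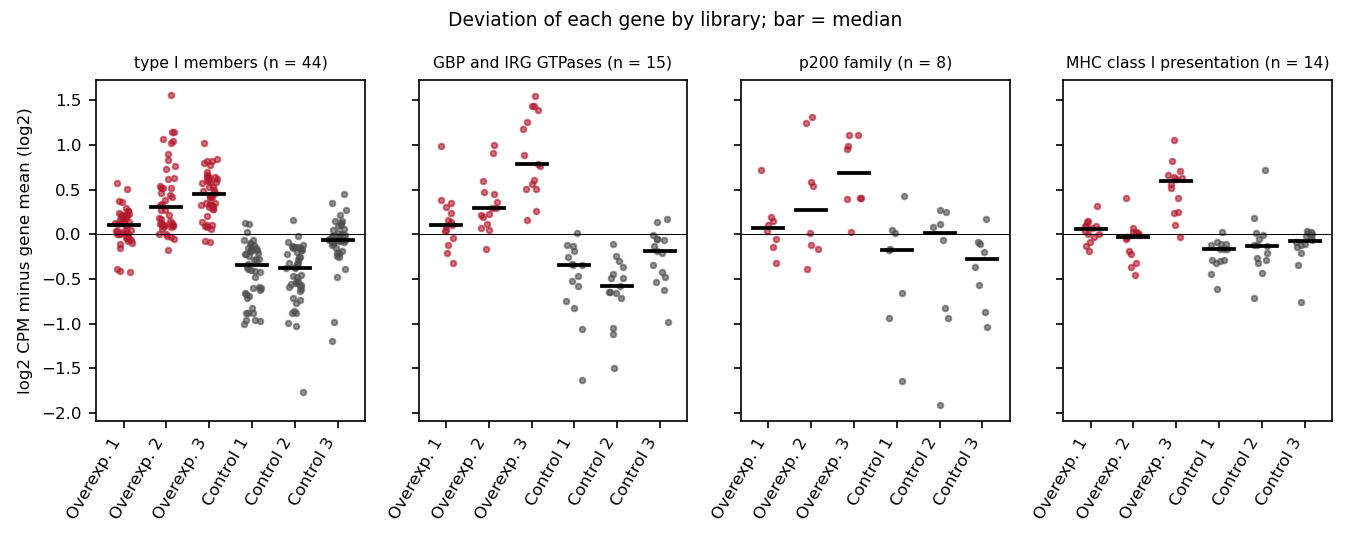
Log2 CPM minus each gene's mean over the 6 libraries for the 44 members, 15 GBP and IRG GTPases, 8 p200 genes and 14 MHC class I presentation genes; dots are genes, bars medians, overexpression red and left, control grey and right. The members' medians are 0.31 and 0.45 in overexpression replicates 2 and 3, while MHC class I genes stand at -0.03 and 0.59 there.

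The related interferon-inducible families are given beside the members for comparison of direction. Over all genes tested, 50.4% were above 1, 7.07% had groups apart on the higher side and 4.64% were higher at an unadjusted p under 0.05. GBP and IRG GTPases had 15 of 15 tested genes above 1, 11 of them with groups apart, and a median of 0.79 in log2 fold change; Tgtp1 passed (adjusted p = 0.0159). Of the p200 genes, DNA sensors and their relatives, 7 of 8 were above 1, with a median of 0.65 and 3 apart; Ifi213 passed (adjusted p = 0.0499). MHC class I presentation had 12 of 14 above 1, a median of 0.32 and 5 apart, with 0 past the threshold and 5 at an unadjusted p under 0.05. These lists share their libraries with the members, so they are not independent of them.

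Upstream of the induced genes, transcripts of the 10 interferon genes looked up were at or near 0. No other interferon gene was looked up. Of 10 interferon genes, 7 had 0 counts in all 6 libraries, which allows up to 0.0798 to 0.0984 CPM in a library at 3 counts. These were Ifna1, Ifna2, Ifna4, Ifna5, Ifng, Ifnl2 and Ifnl3. Ifnb1 had 1 count in overexpression replicate 1, Ifne had 1 in overexpression replicate 2, and Ifnk had 2 in control replicate 1. These limits cover counting error only, and interferon genes are known to be transcribed in brief bursts.

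Ifnar1, a chain of the type I receptor, had 43.6, 48.5 and 46.8 CPM in overexpression libraries, against 50.6, 53.1 and 52.1 CPM in control libraries. Its groups were apart on the lower side (8.07% of all genes tested), with a log2 fold change of -0.17 and an adjusted p of 0.431. Ifnar2, the other chain, had 7.93 to 8.42 CPM in overexpression libraries against 7.84 to 8.56 CPM in control libraries (adjusted p = 0.973). Of 5 tested receptor genes 0 passed in either direction, and the same held for 8 kinases, STATs and inhibitors and for 14 genes of nucleic acid sensing. Few genes passed at all: of all 19354 tested, 5 were called higher and 4 lower. The kinase gene Jak2 had 45.8 to 53.0 CPM in overexpression libraries against 44.9 to 47.3 CPM in control libraries (adjusted p = 0.657). Rigi, the RIG-I sensor, had 9.99, 11.4 and 12.1 CPM in overexpression libraries, against 7.82, 7.31 and 9.31 CPM in control libraries, with groups apart (log2 fold change 0.46, adjusted p = 0.269). Tlr7, an endosomal sensor of RNA, was apart as well, at 5.15 to 6.96 CPM in overexpression libraries against 4.60 to 5.08 CPM in control libraries (log2 fold change 0.36, adjusted p = 0.480). In the nucleic acid sensing list, 2 genes were apart on the higher side (7.07% of all genes tested) and 1, Tbk1, on the lower (8.07%). Tbk1 had 50.8 to 54.5 CPM in overexpression libraries against 54.8 to 58.5 CPM in control libraries (log2 fold change -0.10, edgeR adjusted p = 0.623). The adaptors Mavs and Sting1 had log2 fold changes of -0.03 and 0.05.

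Cell type markers were read beside these values, since in bulk tissue more cells of a type and more RNA per cell cannot be told apart. Microglia markers summed to 360, 337 and 397 CPM in overexpression replicates 1, 2 and 3, against 354, 376 and 389 CPM in control replicates 1, 2 and 3, with overlap and 3 of 8 markers above 1. The microglial gene Fcrls had 17.3, 17.8 and 16.7 CPM in overexpression libraries, against 22.9, 21.6 and 23.1 CPM in control libraries, apart on the lower side (log2 fold change -0.38, adjusted p = 0.117). Endothelial markers summed to 203 to 209 CPM in overexpression libraries against 185 to 217 CPM in control libraries. Border macrophage markers summed to 16.2, 12.05 and 14.8 CPM in overexpression libraries, against 11.2, 10.7 and 11.3 CPM in control libraries, so the groups were apart. In that list 4 of 6 markers were above 1, among them Mrc1 (adjusted p = 0.412) and Cd163 (adjusted p = 0.419), both with groups apart. Pf4 and Ms4a7 were below 1, and Ms4a7 was apart on the lower side. Ms4a7 had 0.418, 0.380 and 0.416 CPM in overexpression libraries, against 0.561, 0.851 and 0.656 CPM in control libraries (log2 fold change -0.77, adjusted p = 0.514). T and NK cell markers summed to 1.07, 1.08 and 2.497 CPM in overexpression libraries, against 1.12, 1.28 and 1.41 CPM in control libraries, and 7 of 8 were too low to test. Monocyte and neutrophil markers summed to 1.25, 1.99 and 1.47 CPM in overexpression libraries, against 1.49, 0.612 and 0.721 CPM in control libraries. Meningeal fibroblast markers summed to 99.1 to 127 CPM in overexpression libraries against 71.0 to 114 CPM in control libraries. In that list 6 of 6 were above 1 (50.4% of all genes tested). Their median log2 fold change was 0.64, beside 0.54 for the 44 members. Col1a1 (1.62-fold, edgeR adjusted p = 0.189) and Col1a2 (1.89-fold, edgeR adjusted p = 0.215) had groups apart on the higher side (7.07%). Col3a1, Dcn, Lum and Slc6a13 overlapped. Oligodendrocyte markers, 0 of 5 above 1, summed to 2793 to 3303 CPM in overexpression libraries against 3541 to 4420 CPM in control libraries. Astrocyte markers, 1 of 5 above 1, summed to 1538, 1438 and 1562 CPM in overexpression libraries, against 1599, 1681 and 1763 CPM in control libraries, so these sums were apart on the lower side. Among them Gfap, an intermediate filament gene, had 338, 328 and 401 CPM in overexpression libraries, against 465, 525 and 533 CPM in control libraries, also apart (log2 fold change -0.51, adjusted p = 0.0862). Gfap was the only marker of the list with groups apart, and Aldh1l1, Aqp4, Slc1a3 and Gja1 overlapped. B cell markers, 3 of 4 too low to test, summed to 0.298 to 0.702 CPM in overexpression libraries against 0.186 to 0.685 CPM in control libraries. The part of these cells in the interferon-stimulated differences was not tested.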

How the data were processed

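RNA was extracted with Trizol and poly(A) RNA was made into strand-specific libraries with dUTP, per the labels' protocols. The authors deposited whole-number counts per Ensembl gene, 1 column per library, and 0 other per-sample columns were present. The submitters' processing notes name featureCounts 2.0.3, STAR 2.7.10, Trimmomatic 0.36 and 2 builds, GRCm39 and mm10, with no role or order. The sources used here give neither annotation release nor strand setting.

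Symbols came from a list of gene identifiers (51948 of 56941 matched; 0.264 to 0.348% of a library's counts had none). Rigi was matched as Ddx58 and Sting1 as Tmem173; of 9 p200 names, 2 share 1 identifier. The fit used edgeR 4.0.16 in R 4.3.3: quasi-likelihood test (robust), TMM factors, default filter on low counts, group as the only term, and Benjamini-Hochberg adjustment over the 19354 genes tested (threshold 0.05). Its calls were checked on simulated data. CPM are scaled by TMM; log2 CPM add a prior count of 2. The standard error comes from the F statistic. Lists are described by counts and medians, with no test over a list. Exon lengths and 50-base words came from GENCODE M21, and promoters from RefSeq GRCm38.p6. Alternatives were RLE, upper-quartile and total-count scaling, DESeq2 1.42.0, limma 3.58.1 (voom with sample weights), other filters, a looser threshold, a replicate block and leaving out each library.

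The members and lists were chosen with earlier results of these data known. The named-gene rule took members past the threshold, the 20 with the smallest p, the 3 with the largest p and the 2 most abundant in CPM; other members are named with fewer values. Of each other list it took genes that passed and was to take the 2 with the smallest p, but those 2 are named for only some lists. Pathway and marker genes named beyond these were chosen after their values were seen. Library pairs all differed by more than counting noise (chi-square per degree of freedom 4.28 to 12.9). Each library is from its own mouse, as the series' design text gives it. 1 gene of the signalling list is not reported here.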

Additional observations from a re-analysis of the deposited data

How the results depend on the processing

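Of the 44 members, 42 had the same direction under every alternative in which they were tested, and 41 to 43 members were above 1. Their median log2 fold change was 0.50 to 0.55 under other scalings, tools, filters and the replicate block, and 0.43 to 0.65 with 1 library left out. The exceptions were Irf1 (-0.11 without overexpression replicate 3, -0.0064 without control replicate 1, and up to 0.22 without overexpression replicate 1) and Lgals3bp (-0.047, -0.019 and -0.018 without overexpression replicate 1, control replicate 1 or control replicate 2, and up to 0.22 without control replicate 3). Counts of calls moved far more. Against 9 genes and 1 member in edgeR, DESeq2 called 107 genes and 8 members, limma-voom 2 and 0 (32 members at an unadjusted p under 0.05), edgeR without a filter 304 and 21, edgeR with at least 1 CPM in 3 libraries 5 and 1, and an adjusted p of 0.1 gave 19 and 1. The cause was not tested. Leaving out 1 library gave 2 to 63 genes and 0 to 7 members. With the replicate number as a block, 26 genes and 6 members were called (Ifit1, Ifit3b, Mx1, Rsad2, Trim30a and Rnf213). Same-numbered libraries correlated in their deviations by only 0.0172 to 0.0232, so the numbers are not taken as pairs, although each library correlated best with its own number. With CT required after the response element core, 7 members in place of 15 had a match. Depth limits Oas3, Oasl1 and the interferon genes most.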

Other observations

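A further 34 genes known to be interferon-induced were listed after the members' values had been seen. Of the 30 with enough counts, 24 had a fold above 1 and the median was 0.25 on the log2 scale, beside 0.54 for the 44 members; 0 passed the adjusted threshold in edgeR's test, 10 were higher at an unadjusted p under 0.05 (4.64% of all genes tested) and 7 had groups apart on that side (7.07%), as opposed to 1 (Tdrd7) on the lower side (8.07%). Slfn8, of the schlafen family, had 2.77, 4.82 and 6.30 CPM in overexpression libraries, against 1.81, 1.81 and 2.36 CPM in control libraries (log2 fold change 1.22, adjusted p = 0.215). Ddx60, a helicase, had 2.27, 4.56 and 4.08 CPM in overexpression libraries, against 1.31, 2.47 and 2.16 CPM in control libraries, where overexpression replicate 1 lay below control replicate 2 (log2 fold change 0.87, adjusted p = 0.423). Tor3a, an ATPase of the endoplasmic reticulum, had 10.2, 10.6 and 11.2 CPM in overexpression libraries, against 8.35, 7.85 and 9.31 CPM in control libraries, with groups apart (log2 fold change 0.33, adjusted p = 0.401). The abundant genes Ly6e, Daxx and Parp11 were at log2 fold changes of -0.02, -0.05 and 0.0047.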
